A study of Orbilia oligospora ATCC 24927 with 24 samples.

Results

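AOL_s00080g288 and AOL_s00006g511 are 2 of the 11479 annotated genes of the nematode-trapping fungus Arthrobotrys oligospora (Orbilia oligospora), and both are annotated as lectins, proteins that bind sugar chains. They were chosen by name, with their levels in these libraries already known, and followed across 8 groups of hyphae. The deposited annotation gives AOL_s00080g288 a fungal fruit body lectin domain and, as its nearest Swiss-Prot entry, the lectin of the button mushroom Agaricus bisporus. The same gene model also carries a match to THOC7, a subunit of the THO complex, and its coding length is 1557 bases, or 519 codons. AOL_s00006g511 is a short model of 357 coding bases, or 119 codons, with a D-mannose binding lectin domain, and its nearest Swiss-Prot entry is the mannose-specific lectin of the snowdrop Galanthus nivalis. The lectin label therefore holds for both genes by annotation, while a single value covers the lectin and the THOC7 portions of AOL_s00080g288, and reads over them cannot be told apart.

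Lectins of the fruit body family bind glycans that carry N-acetylgalactosamine, and in mushrooms they are abundant soluble proteins with toxicity to nematodes and insects reported for some of them. Lectins of the snowdrop family bind mannose, a sugar found on many glycoproteins and in fungal cell walls. In A. oligospora, lectins have long been studied for a part in the recognition of nematode surfaces and as stores of nitrogen. The THO complex, known best from yeast and animals, binds nascent messenger RNA and links transcription to its export from the nucleus. Adenylate cyclase makes cyclic AMP, and cyclic AMP frees the catalytic subunit of protein kinase A from its inhibitory partner. The study asked how this pathway bears on growth and on the adhesive networks with which the fungus traps nematodes.

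All libraries were made from hyphae of strain ATCC 24927 or its deletion mutants, grown on potato dextrose agar at 28 degrees C. One experiment held an AoAcy deletion mutant 12 h after trap induction with nematode extract, the same mutant untreated (0 h), wild type 12 h after induction and untreated wild type. The other experiment held an AoPkaC1 deletion mutant and its own wild type in the same 4 states. Each group had 3 libraries, 24 in all, and each experiment had a table of its own. No library represents 12 h without extract, so the effect of the extract and that of 12 h of further culture cannot be told apart. The labels do not say how many transformants stand for each deletion, and where libraries are not separate cultures the p-values measure technical spread only.

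Values are in TPM, a transcript level corrected for length and scaled to the same total in every library. Read depth is therefore unknown, and no counting interval can be given. The median TPM of the annotated genes was 14.4 to 25.0 across the Acy libraries and 7.34 to 17.5 across the PkaC1 libraries, so the scale of the libraries differed. With libraries scaled to the same median, the share of called genes that were higher moved by over 10 percentage points in every comparison: in the induced Acy deletion it was 41.4% in place of 76.9%, and in the induced PkaC1 deletion 49.8% in place of 26.6%. A log2 fold change below is on the log2(TPM + 1) scale with its standard error (SE), from limma fitted to all tested genes of an experiment, and a gene is called at a Benjamini-Hochberg adjusted p under 0.05. Where a gene stood among the 5% of tested genes farthest in its direction, the comparison is taken as one that its choice rested on, and it is described without a p. The mark is a convention. Levels in all libraries were known at the choice, so p-values printed for the 2 chosen genes are not independent tests. The adenylate cyclase gene AOL_s00080g284, the candidate for the deleted AoAcy, averaged 10.3 TPM in untreated Acy deletion hyphae and 16.5 TPM in untreated wild type, so it was not at 0. Both candidate protein kinase A catalytic subunits, AOL_s00043g480 and AOL_s00078g405, were likewise detected in PkaC1 deletion hyphae, at 48.5 and 51.2 TPM untreated against 69.6 and 57.1 TPM in untreated wild type. The labels do not tie either deletion to a gene model.

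AOL_s00080g288 was among the most abundant transcripts of induced wild type in the Acy experiment and was low in the Acy deletion at both times. It had 49.2, 42.6 and 37.6 TPM in the 3 induced deletion libraries, against 930.1, 1999 and 1922 TPM in induced wild type. Among the 11479 genes it ranked 145, 54 and 50 in those wild type libraries. In untreated hyphae it had 38.4, 38.7 and 32.4 TPM in the deletion, against 178.1, 332.6 and 231.2 TPM in wild type. Neither pair of groups overlapped, and the lowest wild type library, whether induced or not, was above every deletion library.

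The mean of AOL_s00080g288 was 43.1 ± 5.81 TPM in induced deletion hyphae and 1617 ± 596 TPM in induced wild type (SD, n = 3 each), which is 37.5-fold lower in the deletion. The log2 fold change was -5.12 ± 0.277 (SE), the sixth lowest of 9617 tested genes. In untreated hyphae the means were 36.5 ± 3.56 TPM in the deletion and 247.3 ± 78.5 TPM in wild type, 6.77-fold lower in the deletion, with a log2 fold change of -2.68 ± 0.277. Induction in wild type gave 6.54-fold more transcript (log2 fold change 2.67 ± 0.277). The authors' deposited table gives -5.66, -2.90 and 2.93 for these comparisons. They are descriptions, since the gene was picked with them known. Of all tested genes, 59.2% were called between induced deletion and induced wild type, 42.1% between the untreated groups and 28.6% for induction in wild type.

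Induction in the Acy deletion was a comparison in which AOL_s00080g288 did not stand out. The 3 induced and 3 untreated deletion libraries overlapped, and the log2 fold change was 0.23 ± 0.277 (limma adjusted p = 0.667). A p of that size does not show that the level was the same at both times. The background here was low, with 4.99% of the tested genes called. The induction response of the deletion minus that of wild type was -2.44 ± 0.392 on the log2 scale, again a description, beside a median of 0.27 over all tested genes and 19.3% of them called.

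**Figure D1:**
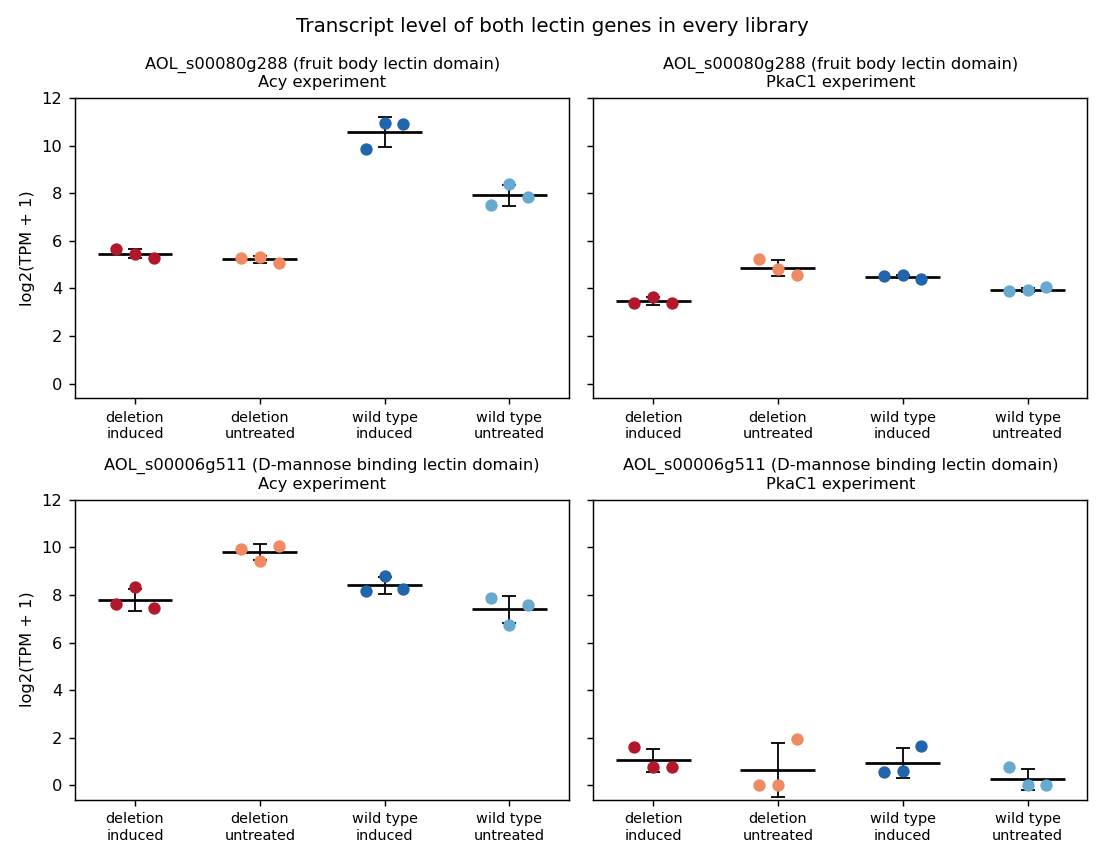
Level of AOL_s00080g288 (top) and AOL_s00006g511 (bottom) as log2(TPM + 1) in every library of the Acy experiment (left) and the PkaC1 experiment (right). Points are libraries, the long horizontal line is the mean and the whiskers are 1 SD (n = 3). AOL_s00080g288 is high in both wild type groups of the Acy experiment, and AOL_s00006g511 is near 0 in all groups of the PkaC1 experiment.

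AOL_s00006g511 followed another order in the same Acy libraries, with its highest level in the untreated deletion. It had 973.0, 690.1 and 1048 TPM in untreated deletion hyphae, against 230.8, 106 and 190.2 TPM in untreated wild type. The groups did not overlap, and the deletion mean was 5.14-fold that of wild type (904 ± 189 and 176 ± 63.7 TPM, SD, n = 3 each). The log2 fold change was 2.41 ± 0.301, described without a p. In untreated deletion hyphae the lectin of the snowdrop family was therefore higher and that of the fruit body family lower.

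After induction AOL_s00006g511 had 197.5, 316.7 and 172.1 TPM in the deletion and 282.2, 444.4 and 303.8 TPM in wild type. These groups overlapped, since the second deletion library was above 2 of the wild type libraries. The log2 fold change was -0.61 ± 0.301 and was not called (limma adjusted p = 0.0999). When libraries were scaled to the same median it was -1.12 ± 0.334 and was called (adjusted p = 0.0146), and without the second induced deletion library it was -0.86 (adjusted p = 0.0348). The authors' deposited table gives -0.96 with an adjusted p of 0.00057 for this comparison, which is a call. The difference in AOL_s00006g511 between induced deletion and induced wild type was thus called or not depending on the scaling and on 1 library, while the sign was the same in each of these fits.

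Induction went opposite ways in the 2 strains for AOL_s00006g511. All 3 induced deletion libraries lay below the untreated deletion libraries, with a log2 fold change of -2.01 ± 0.301, while all 3 induced wild type libraries lay above the untreated ones, with 1.01 ± 0.301. The difference of the responses was -3.01 ± 0.426. In the deletion only 1.33% of the tested genes were called lower on induction, and AOL_s00006g511 ranked 11 from the bottom of 9617. All 3 values are descriptions, since the gene's place at the edge of the distribution was known when it was chosen.

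The order of the groups in the Acy experiment differed between the genes. For AOL_s00080g288 it was induced wild type, untreated wild type, induced deletion and untreated deletion, and only the 2 deletion groups overlapped. For AOL_s00006g511 it was untreated deletion, induced wild type, induced deletion and untreated wild type, and only the first of these was clear of its neighbour. Within each library, the log2 ratio of AOL_s00080g288 to AOL_s00006g511 does not depend on scaling between libraries. This ratio was -1.98, -2.87 and -2.16 in induced deletion hyphae, and 1.72, 2.17 and 2.66 in induced wild type. It was -4.63, -4.12 and -4.97 in untreated deletion hyphae, and -0.37, 1.64 and 0.28 in untreated wild type. AOL_s00006g511 was thus the more abundant of the pair in all 6 deletion libraries, and AOL_s00080g288 in 5 of the 6 wild type libraries. Over the 12 Acy libraries the levels had a Pearson correlation of -0.289, a description over libraries that share groups.

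In the PkaC1 experiment AOL_s00080g288 was a transcript of modest level, and its induction response had opposite signs in deletion and wild type. It rose in untreated deletion hyphae, where it had 36.3, 27.2 and 22.4 TPM, against 13.9, 14.1 and 15.5 TPM in untreated wild type. It fell in induced deletion hyphae, which had 9.52, 11.7 and 9.38 TPM, against 22.1, 22.4 and 20.3 TPM in induced wild type. Neither pair of groups overlapped. In order of level, untreated deletion and induced wild type overlapped at the top, followed by untreated wild type and then the induced deletion.

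The untreated deletion had a log2 fold change over wild type of 0.91 ± 0.151 (limma adjusted p = 0.000282), in a comparison where 64.7% of the tested genes were called and 40.7% were called higher. The induced deletion had -1.02 ± 0.151 (limma adjusted p = 9.57e-05), where 70.9% of the genes were called and 52.0% were called lower. Induction gave -1.38 ± 0.151 in the deletion (limma adjusted p = 4.35e-06) and 0.55 ± 0.151 in wild type (limma adjusted p = 0.00691), with 81.6% and 69.7% of the genes called. The difference between these responses was -1.93 ± 0.213 (limma adjusted p = 1.25e-05), with 71.9% called. For this difference 6.59% of the tested genes were at least as far, just outside the mark for a comparison taken as used. Calls of this kind were therefore the common case in the experiment, and 16.4% and 15.3% of the tested genes were at least as far in the same direction in the untreated and the induced comparison. The gene was chosen with its levels in these libraries known, so the p-values above are not independent tests.

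Part of these sizes was shared with the other genes. Over all tested genes the median was 0.20 in the untreated comparison, -0.39 in the induced one, -0.72 for induction in the deletion, -0.16 for induction in wild type and -0.62 for the difference. With libraries scaled to the same median, AOL_s00080g288 had 0.68, -0.60, -0.51, 0.77 and -1.28 in the same order, and each was still called. The authors' deposited log2 fold changes for the first 4 of these were 0.76, -0.64, -0.69 and 0.78. The wild type libraries of this experiment lay close together, with SDs of 0.905 TPM (untreated) and 1.13 TPM (induced), against 7.09 TPM in untreated deletion hyphae. When the 3 libraries of a wild type group counted as 1, a choice made after the data were seen, the rise on induction in wild type was no longer called (0.55, limma adjusted p = 0.257), and the other 4 calls held.

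AOL_s00006g511 was at or near 0 in every library of the PkaC1 experiment. It had 2.03, 0.73 and 0.69 TPM in induced deletion hyphae, and 0.47, 0.53 and 2.15 TPM in induced wild type. It was listed at 0, 0 and 2.9 TPM in untreated deletion hyphae, and at 0.71, 0 and 0 TPM in untreated wild type. Every pair of groups overlapped. It passed the low-value filter with just 3 of 12 libraries at 1 TPM or more. None of the 5 comparisons was called, with limma adjusted p between 0.258 and 0.867. Without the third untreated deletion library, induction in the deletion would be called (log2 fold change 1.05, limma adjusted p = 0.0294), a difference between levels near 1 TPM.

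**Figure D2:**
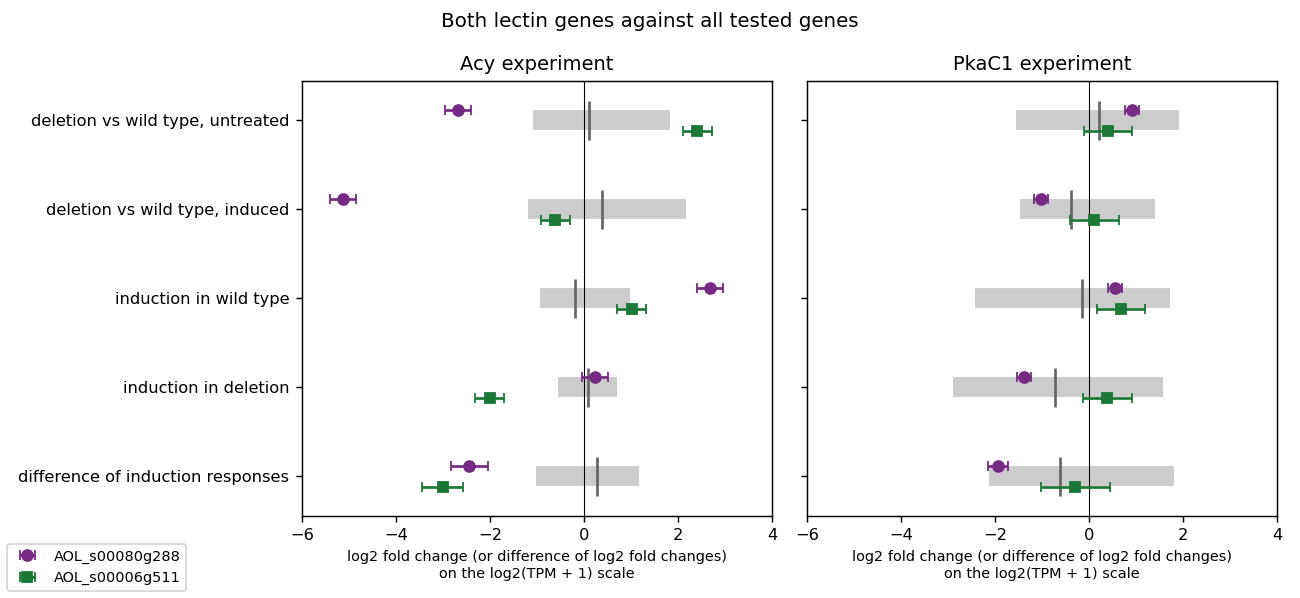
Log2 fold changes on the log2(TPM + 1) scale of AOL_s00080g288 (circles) and AOL_s00006g511 (squares) with their SE, in the Acy (left) and PkaC1 (right) experiments. Grey bars span the 5th to 95th percentile of all tested genes and the vertical tick is their median. In the Acy experiment AOL_s00080g288 lies outside the bar in 4 of 5 comparisons, and in the PkaC1 experiment it lies inside all 5.

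The wild type groups of the 2 experiments had the same genotype and treatment in the labels and yet very different lectin levels. AOL_s00080g288 was 74.8-fold higher in induced wild type of the Acy experiment than in induced wild type of the PkaC1 experiment, and 17.1-fold higher in the untreated groups. Among 9359 genes compared after induction, 1.35% were at least as much higher in the Acy experiment, and 3.86% of 9299 untreated. AOL_s00006g511 averaged 343 TPM in induced wild type of the Acy experiment and 1.05 TPM in that of the PkaC1 experiment. In untreated wild type it averaged 176 and 0.237 TPM in the same order. Of the 29 lectin-list genes compared, these 2 included, 11 (37.9%) were 4-fold or more higher in the Acy experiment after induction and 9 (31.0%) untreated. Over all genes the shares were 14.9% and 12.4%. By non-overlap at any size, 16 of the 29 (55.2%) had all Acy libraries above all PkaC1 libraries after induction. The reverse held for 12 (41.4%), beside 52.1% above and 29.4% below over all genes. Untreated, 19 (65.5%) were above and 8 (27.6%) below, beside 54.8% and 28.7% of all genes. The median log2 difference was 0.46 for the list and 0.38 for all genes after induction, and 0.98 and 0.45 untreated. The tables were normalized separately, so these are levels set side by side without a test, and strain stock, culture and sequencing run cannot be told apart.

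Because the gene model of AOL_s00080g288 also matches THOC7, its level was set beside the 4 other genes annotated to the THO complex, a list chosen after values had been seen. AOL_s00043g15, AOL_s00076g203, AOL_s00078g459 and AOL_s00188g147 averaged between 16.6 and 66.6 TPM in induced Acy deletion hyphae, and AOL_s00080g288, at 43.1 TPM, lay within that range. In induced wild type of that experiment they averaged between 10.3 and 32.9 TPM, whereas AOL_s00080g288 averaged 1617 TPM. All 4 were called higher in the induced deletion, with log2 fold changes of 0.61 to 1.00, opposite in sign to AOL_s00080g288. In that comparison 45.5% of all tested genes were called higher and their median was 0.39. With libraries scaled to the same median 2 of the 4 were still called, beside 2036 of all 9617 tested genes called higher. In the PkaC1 experiment AOL_s00080g288 lay within their range in every group. There the log2 fold changes of the 4 were 0.34 to 0.69 in the untreated deletion, beside 0.91 for AOL_s00080g288 and a median of 0.20 over all tested genes. In the induced deletion they were -1.0 (AOL_s00076g203), -0.84 (AOL_s00188g147), -0.61 (AOL_s00043g15) and -0.29 (AOL_s00078g459), beside -1.02 for AOL_s00080g288 and a median of -0.39. On induction in wild type they were 0.20, -0.42, -0.42 and 0.08 in the same order, beside 0.55 for AOL_s00080g288 and a median of -0.16. Induction in the deletion gave -1.59 to -0.89 for the 4, beside -1.38 for AOL_s00080g288 and a median of -0.72.

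**Figure D3:**
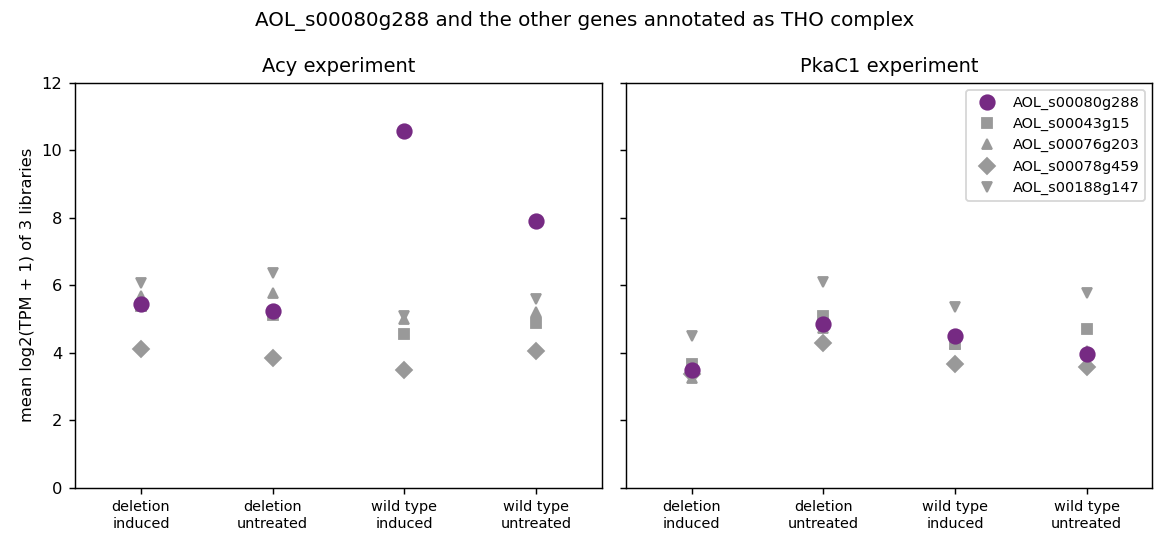
Mean log2(TPM + 1) of 3 libraries for AOL_s00080g288 (large circles) and the 4 other genes annotated to the THO complex (grey), by group in the Acy (left) and PkaC1 (right) experiments. AOL_s00080g288 stands above the others in both wild type groups of the Acy experiment and lies among them in the remaining groups.

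AOL_s00080g288 lies 4 gene models from the adenylate cyclase gene AOL_s00080g284 in the annotation order, so its neighbours were examined. Of the 16 nearest models, 8 on each side, 15 were tested. In untreated Acy deletion hyphae none was called higher and 2 were called lower, beside 26.6% and 15.6% of all tested genes, with log2 fold changes from -0.85 to 0.38 over the 15. The 2 called lower were AOL_s00080g284 itself (-0.63 ± 0.153, limma adjusted p = 0.00536) and its neighbour AOL_s00080g285 (-0.85 ± 0.158, limma adjusted p = 0.000857). After induction 10 were called higher and 1 lower, beside 45.5% and 13.7% of all tested genes, in a range of -0.58 to 1.45. With scaling to the same median the split was 3 higher and 4 lower, beside 2036 and 2877 of all 9617 tested genes. The adjacent gene AOL_s00080g287 averaged 33.1 TPM in induced deletion hyphae and 33.8 TPM in induced wild type. All neighbours thus stayed far from the -2.68 and -5.12 of AOL_s00080g288. In the PkaC1 experiment 9 of the 15 were called higher and 1 lower in the untreated deletion, beside 40.7% and 24% of all tested genes. In the induced PkaC1 deletion 1 was called higher and 9 lower, beside 18.9% and 52.0%. After scaling the counts were 7 higher and 3 lower untreated, and 3 higher and 7 lower induced. Scaling gave 2666 higher and 2970 lower of all 8977 tested genes untreated, and 2853 and 2880 induced.

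Around AOL_s00006g511, 10 of the 16 nearest models were tested. In the untreated Acy deletion 5 were called higher and none lower, and in the induced deletion 4 were higher and none lower, with the same counts after scaling. Of all tested genes 26.6% were called higher in the untreated and 45.5% in the induced comparison, so the induced count without scaling is near the background. With scaling, 2100 of the 9617 tested genes were called higher in the untreated and 2036 in the induced comparison. AOL_s00006g507, 4 models away on one side, averaged 29.1 TPM in untreated deletion hyphae and 1.29 TPM in untreated wild type, which is 3.69 ± 0.281 on the log2 scale (limma adjusted p = 6.95e-07). AOL_s00006g515, 4 models away on the other side, averaged 21.8 and 1.33 TPM in the same groups (3.30 ± 0.238, limma adjusted p = 4.54e-07). These neighbours are named for their large changes among the 10 tested, so their p-values describe picked genes. Unlike AOL_s00006g511, both were also higher in the induced deletion, by 4.74 and 3.20. The genes next to AOL_s00006g511 on either side, AOL_s00006g510 and AOL_s00006g512, were at 1.97 TPM or less in every Acy group.

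**Figure D4:**
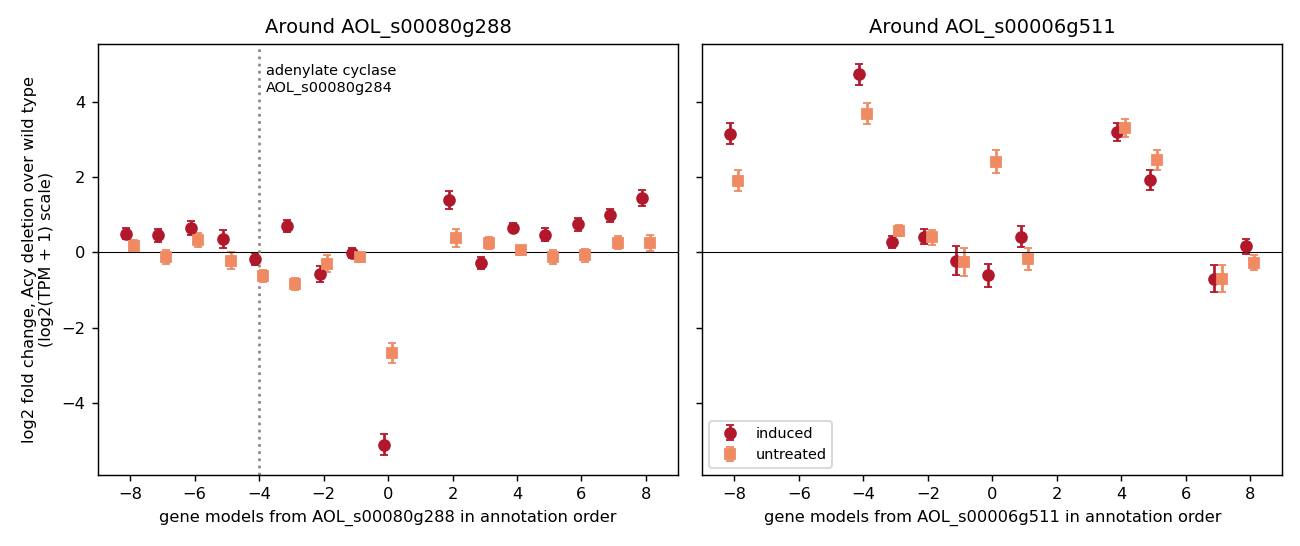
Log2 fold change of the Acy deletion over wild type (log2(TPM + 1) scale, with SE) for AOL_s00080g288 (left, at 0) and AOL_s00006g511 (right, at 0) and the tested gene models up to 8 away in annotation order, after induction (circles) and untreated (squares). The dotted line marks the adenylate cyclase gene. AOL_s00080g288 stands alone at -5.12 and -2.68 among its neighbours, while several neighbours of AOL_s00006g511 are above 1.9 on the log2 scale.

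Genes were also ranked by how alike their levels were to those of AOL_s00080g288 in both experiments. Candidates were 7923 other genes tested in both experiments that averaged at least 10 TPM in some group of either experiment. Ranked by the lower of their Pearson correlations over 12 libraries of each experiment, the 5 most alike were AOL_s00007g453, AOL_s00083g96, AOL_s00110g186, AOL_s00006g303 and AOL_s00043g362. By Spearman (rank) correlation the 5 most alike were all different genes, with AOL_s00097g88 first (0.79 and 0.86). AOL_s00007g453 encodes a nucleoside diphosphate kinase, which balances nucleotide pools, and correlated at 0.878 (Acy) and 0.858 (PkaC1). AOL_s00083g96 encodes an alpha-galactosidase, which removes galactose from sugar chains (0.83 and 0.859). AOL_s00110g186 encodes a copper amine oxidase, which oxidizes amines and frees ammonia (0.96 and 0.812). In the Acy experiment AOL_s00110g186 averaged 20.0 TPM in induced deletion hyphae and 93.3 TPM in induced wild type, and in the PkaC1 experiment 7.26 TPM in induced deletion hyphae and 32.1 TPM in induced wild type. Unlike AOL_s00080g288, AOL_s00007g453 and AOL_s00083g96 hardly moved on induction in Acy wild type. They averaged 2639 and 37.7 TPM untreated, and 2696 and 38.3 TPM induced. AOL_s00110g186, AOL_s00006g303 and AOL_s00043g362 had higher means there, at 93.3, 46.0 and 29.8 TPM induced and 51.7, 36.3 and 17.1 TPM untreated. The correlation coefficients are descriptions over libraries that share 4 groups per experiment.

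For AOL_s00006g511 the best correlations were weaker, with the lower value at 0.531 or less. The 5 genes were AOL_s00193g152, AOL_s00007g95, AOL_s00215g524, AOL_s00006g381 and AOL_s00076g296, of which AOL_s00076g296 alone has a named domain, an F-box. By Spearman correlation only AOL_s00007g95 was again among the 5 most alike. The near-zero levels of AOL_s00006g511 in the PkaC1 experiment limit this ranking. In the Acy experiment alone, a choice made after the data were seen, AOL_s00076g78 was most alike (0.909), and AOL_s00006g185 was most alike to AOL_s00080g288 (0.986). AOL_s00006g185 averaged 0.1 TPM or less in both Acy deletion groups and 32.0 TPM in induced wild type.

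The other annotated lectins did not share one direction. A search of the annotation for lectin terms gave 35 further genes, some of which matched the words without being lectins, such as the ribosomal protein S10 gene AOL_s00081g339 (plectin domain) and the BEACH-domain gene AOL_s00112g46. In the Acy experiment 28 of the 35 were tested. In untreated deletion hyphae 8 (28.6%) were called higher and 5 (17.9%) lower, beside 26.6% and 15.6% of all tested genes. In induced deletion hyphae 10 (35.7%) were called higher and 6 (21.4%) lower, beside 45.5% and 13.7%. Induction in the deletion left none called higher and 2 (7.14%) lower, beside 3.66% and 1.33%. Induction in wild type left 5 (17.9%) called higher and 5 (17.9%) lower, beside 9.2% and 19.4%. The difference of responses was called positive for 6 (21.4%) and negative for 5 (17.9%), beside 14.2% and 5.1%. After scaling to equal medians 4 of the 28 were called higher and 12 lower in the induced deletion, and 8 higher and 7 lower in the untreated one. Of all 9617 tested genes, scaling gave 2036 higher and 2877 lower in the induced deletion, and 2100 and 2220 in the untreated one. No test of the list was made, and nothing is read from these shares about lectins as a class.

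Several of these lectins were abundant and moved in ways of their own. The lectin-list genes named one by one here and below were picked with their values seen. Their p-values describe picked genes and are not independent tests. AOL_s00043g240, with a ricin-type lectin domain, was the most abundant, at 8998 ± 4167 TPM in induced Acy deletion hyphae and 27938 ± 8169.6 TPM in induced wild type, a log2 fold change of -1.68 ± 0.324 (limma adjusted p = 0.000794). AOL_s00173g391, a fucose-specific lectin, was lower in the deletion and higher on induction in wild type, as AOL_s00080g288 was. It fell to 9.73 ± 0.922 TPM in induced deletion hyphae, against 41.4 ± 6.92 TPM in induced wild type (-1.97 ± 0.154, limma adjusted p = 5.07e-07), and rose by 1.12 on induction in wild type (limma adjusted p = 0.000269). AOL_s00078g564, another gene of the fucose-specific family, moved the other way, with 58.5 ± 3.98 TPM in induced deletion hyphae and 12.0 ± 1.78 TPM in induced wild type (2.20 ± 0.147, limma adjusted p = 1.41e-07).

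AOL_s00193g183, with ricin-type lectin and peptidase inhibitor domains, resembled AOL_s00006g511 in untreated hyphae. It averaged 139.6 ± 29.9 TPM in the untreated deletion and 1.49 ± 0.812 TPM in untreated wild type, a change of 5.85 ± 0.217 on the log2 scale (limma adjusted p = 1.27e-09). It rose by 5.90 on induction in wild type (limma adjusted p = 1.83e-08), beside 2.67 for AOL_s00080g288 and 1.01 for AOL_s00006g511. It was listed at 0 in all 12 libraries of the PkaC1 experiment, where AOL_s00006g511 was also near 0. AOL_s00215g496, another ricin-type gene, shared with AOL_s00006g511 the rise in the untreated deletion (1.57 ± 0.317, limma adjusted p = 0.00154) and the fall on induction in the deletion (-1.95 ± 0.317, limma adjusted p = 0.00532). It fell by 1.67 on induction in wild type (limma adjusted p = 0.0025), where AOL_s00006g511 was higher.

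In the PkaC1 experiment 23 of the 35 were tested. In untreated deletion hyphae 8 (34.8%) were called higher and 8 (34.8%) lower, beside 40.7% and 24% of all tested genes. In induced deletion hyphae 4 (17.4%) were called higher and 14 (60.9%) lower, beside 18.9% and 52.0%. Induction left 6 called higher and 11 lower in the deletion, beside 19.4% and 62.2%, and 8 higher and 9 lower in wild type, beside 28.1% and 41.6%. The difference of responses was called positive for 8 and negative for 10, beside 18.0% and 53.9%. With scaling to the same median, the untreated deletion had 5 higher and 12 lower, the induced deletion 7 higher and 11 lower, and induction in the deletion 14 higher and 5 lower. Of all 8977 tested genes, scaling gave 2666 higher and 2970 lower, 2853 and 2880, and 3726 and 3087 in the same order. AOL_s00078g308, with a ribosome-inactivating protein domain and an agglutinin as its nearest Swiss-Prot entry, averaged 24.1 ± 1.52 TPM in induced deletion hyphae and 0.417 ± 0.364 TPM in induced wild type (4.18 ± 0.186, limma adjusted p = 1.1e-08). AOL_s00173g391 was higher in the induced PkaC1 deletion (2.15 ± 0.268, limma adjusted p = 2.72e-05), opposite to its sign in the Acy experiment. AOL_s00080g288 was lower in the induced deletion of both experiments, by 1.02 and 5.12 on the log2 scale.

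**Figure D5:**
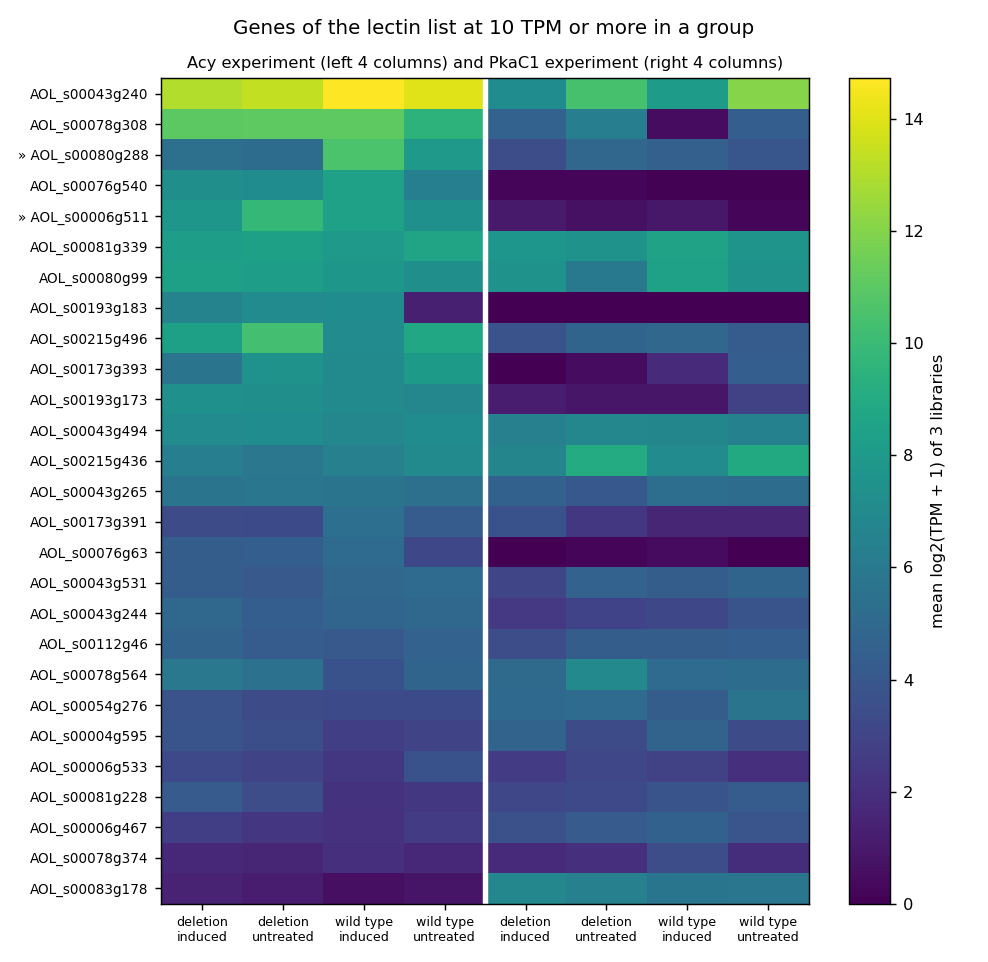
Mean log2(TPM + 1) of 3 libraries for the 27 of 37 lectin-list genes that reached 10 TPM in a group, in the Acy (left 4 columns) and PkaC1 (right 4 columns) experiments. A double arrow marks AOL_s00080g288 and AOL_s00006g511. Rows are ordered by the level in induced wild type of the Acy experiment, and AOL_s00076g540, AOL_s00193g183 and AOL_s00076g63 are, like AOL_s00006g511, near 0 in all PkaC1 columns.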

How the data were processed

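Total RNA from hyphae was sequenced on Illumina libraries, and the submitters' processing notes name HISAT2 and StringTie without versions. No genome build is named in the labels or headers. The TPM values were deposited by the authors, 1 table per experiment, and gene names, domains and Swiss-Prot matches come from the same tables. All 11479 names matched a RefSeq locus tag, and the RefSeq gene order was used for neighbours only. The authors' deposited log2 fold changes and p-values are cited where named. The 8 group-mean columns were not used, and 1568 unnamed loci of the PkaC1 table were left out.

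Groups follow the sample titles and genotype labels. The series' design text names another mutant and was not used for grouping. A gene was tested where 3 or more of the 12 libraries had at least 1 TPM (8977 in the PkaC1 and 9617 in the Acy experiment). limma 3.58.1 in R 4.3.3, with a mean-variance trend, was fitted to log2(TPM + 1) over the 4 groups of each experiment, with Benjamini-Hochberg adjustment, and was checked on simulated data. The pseudocount of 1 understates changes of low genes. The members and the lists were chosen with earlier results of these data known. Named genes were the members, tested lectin-list genes, the 5 genes of most similar pattern, neighbours and candidate deleted genes. The alternatives were a pseudocount of 0.1, no filter, a minimum of 5 TPM, scaling to the same median, a replicate block, robust variances, a fit to 2 groups alone, and leaving out single libraries. Replicate numbers gave no clear pairing by the data. Same-numbered libraries of the Acy deletion groups correlated at 0.137 to 0.435, but just 1 of 3 correlated best with its own number. At least 1 pair was at 0.1 or less for every other pair of groups.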

Additional observations from a re-analysis of the deposited data

Results flagged for a closer look

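AOL_s00080g288 moved in opposite directions on induction in the 2 strains of the PkaC1 experiment. Every induced deletion library was below every untreated deletion library, and every induced wild type library was above every untreated one. Calls were common in both comparisons, at 81.6% of the tested genes for induction in the deletion and 69.7% in wild type. The difference of the responses was -1.93 on the log2 scale, beside a median of -0.62 over all tested genes. It is a description, since the gene was chosen with its levels known. The median of all genes moved with it, and scaling to the same median gave -1.28.

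AOL_s00006g511 did the same in the Acy experiment, where induced deletion libraries were below and induced wild type libraries above the untreated ones. The difference was -3.01 on the log2 scale, beside a median of 0.27. It is described without a p, because the gene was chosen with this pattern known.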

How the results depend on the processing

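Of 285 values of the 2 genes under the alternatives, 276 kept their direction and side of the threshold, or moved by less than the replicate spread. Scaling to the same median gave -5.63 for AOL_s00080g288 in the induced Acy deletion, -2.80 for its difference of Acy induction responses, and -1.12 (adjusted p = 0.0146) for AOL_s00006g511 in the induced Acy deletion. With each PkaC1-experiment wild type group as 1 library, induction of AOL_s00080g288 in wild type stayed at 0.55 and lost its call (adjusted p = 0.257). At a minimum of 5 TPM AOL_s00006g511 was not tested in the PkaC1 experiment.

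Leaving out 1 library gave -5.48 to -4.93 for AOL_s00080g288 in the induced Acy deletion, 2.46 to 3.03 for its induction in wild type and -2.80 to -2.23 for the difference of responses, each farthest from 0 without the first induced wild type library. AOL_s00006g511 ranged from -0.86 to -0.41 in the induced Acy deletion and from 0.07 to 1.05 for induction in the PkaC1 deletion. The log2 ratio of the genes in untreated wild type of the Acy experiment was 0.52, and it ranged from -0.05 to 0.96 when a library was left out, turning negative without the second. A pseudocount of 0.1 moved the ratio in the PkaC1 experiment to 3.19 (induced deletion), 6.50 (untreated deletion), 4.54 (induced wild type) and 6.18 (untreated wild type), since AOL_s00006g511 is near 0 there.

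The replicate block changed no call of the 2 genes. In the induced Acy deletion AOL_s00006g511 stayed at -0.61 (adjusted p = 0.131), and AOL_s00080g288 stayed at 0.23 (adjusted p = 0.645) for induction in the Acy deletion.

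With each PkaC1-experiment wild type group as 1 library, called genes numbered 3001 against 5807 (untreated deletion), 3918 against 6368 (induced deletion), 3343 against 6258 (induction in wild type) and 3931 against 6458 (difference). For induction in the Acy deletion, 480 genes were called, 211 with only the 2 groups fitted, and 152 to 868 with a library left out. The Acy difference of responses called 851 to 2447 with a library left out, against 1852, and Acy wild type induction 1690 to 2263, against 2751. Read depth is unknown, so levels near 1 TPM carry no interval.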

Other observations

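Other genes picked by annotation words, for surface binding, digestion and nitrogen use, are given as counts, without a test of any list. In the Acy experiment 45.5% of all tested genes were called higher and 13.7% lower in the induced deletion, and 26.6% higher and 15.6% lower in the untreated one. Of 45 tested adhesin-type genes (53 listed), 20 (44.4%) were called higher and 8 (17.8%) lower in the induced deletion, and 18 (40%) higher and 3 (6.67%) lower in the untreated one. Of 16 tested genes for chitin binding or LysM domains (23 listed), 4 (25%) were higher and 6 (37.5%) lower in the induced deletion, and 3 (18.8%) higher and 8 (50%) lower in the untreated one. Of 26 tested subtilisin-type protease genes (45 listed), 11 (42.3%) were higher and 5 (19.2%) lower in the induced deletion, and 6 (23.1%) higher and 3 (11.5%) lower in the untreated one. All 18 genes for nitrogen use were tested, with 6 (33.3%) higher and 6 (33.3%) lower in the induced deletion, and 6 (33.3%) higher and 9 (50%) lower in the untreated one. Of 2 tested conidiation genes, 1 was higher in both. With scaling to the same median the induced counts were 11 higher and 14 lower for adhesin-type genes, 3 and 9 for chitin binding, 7 and 10 for proteases and 5 and 9 for nitrogen use. Over all 9617 tested genes the scaled induced counts were 2036 higher and 2877 lower.

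Among the genes most alike to AOL_s00006g511 in the Acy experiment alone was AOL_s00081g178, whose nearest Swiss-Prot entry is a conidiation-specific protein of Neurospora crassa (Pearson correlation 0.899 over 12 libraries). It averaged 0.9 TPM in induced and 2.7 TPM in untreated deletion hyphae, and 1.2 and 0.3 TPM in wild type in the same order. The correlation therefore rests on levels near the floor. AOL_s00081g178 averaged 46.4 TPM in the induced PkaC1 deletion, where AOL_s00006g511 was near 0. Through that group alone it reached the 10 TPM minimum for candidates.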
